A study of Homo sapiens with 8 samples.

Results

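Hepatocyte identity rests on a small set of DNA-binding proteins, and 9 of them were examined here: HNF4A, HNF4G, FOXA1, FOXA2, FOXA3, CEBPA, CEBPB, NR1H4 and NR5A2. They were taken by name, with earlier results of these data known. All 9 had a row among the 60718 genes of the input count table, and 3 of the 9 (FOXA1, CEBPA and CEBPB) were among the 11244 genes of the translation efficiency (TE) table. The question was whether their RNA and their ribosome occupancy were kept between METTL5-WT and METTL5-KO cells labelled HepG2, an established human liver cancer line known for secreting albumin and other plasma proteins. There were 2 replicates in each of 4 groups, namely METTL5-WT input, METTL5-KO input, METTL5-WT ribosome-protected fragments (RPF) and METTL5-KO RPF. The METTL5-KO cells had lost METTL5 coding exons to CRISPR-Cas9 cutting, and the METTL5-WT cells carried an intact gene. METTL5 is the methyltransferase that places an N6-methyladenosine on 18S ribosomal RNA. All cells, the controls included, received 100 µg/mL cycloheximide for 7 minutes, which holds ribosomes on the message. Cells of both genotypes were expanded from isolated clones. Which clone gave which replicate was not stated, so clone and genotype cannot be told apart, and p-values measure only the spread between these samples. In bulk RNA such as this, fewer cells that express a gene and less of its RNA per cell cannot be told apart.

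HNF4A and HNF4G are nuclear receptors that bind promoters of plasma protein and metabolic genes, and HNF4A is held to be the central regulator of the differentiated hepatocyte. FOXA1, FOXA2 and FOXA3 are forkhead pioneer factors that open closed chromatin during liver specification. CEBPA and CEBPB are leucine zipper proteins that can pair with each other. CEBPA drives metabolic genes of the resting hepatocyte, and CEBPB responds to injury and to acute-phase signals. Both are also known to yield shorter proteins from internal start codons of the same message. NR1H4 is the bile acid receptor, which works as a partner of RXRA, and NR5A2 acts beside it in bile acid synthesis.

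The stretches of 250 bases upstream of a RefSeq start of CEBPA, CEBPB and HNF4A are shown because these genes are the factor that fell in METTL5-KO, the most abundant factor and a factor that was nearly absent. The sequences came from RefSeq on GRCh38.p14, and each is written 5′ to 3′ on the strand of its gene with every CG in capitals. The windows were chr19:33302535-33302784 on the minus strand for CEBPA, chr20:50190333-50190582 on the plus strand for CEBPB and chr20:44355449-44355698 on the plus strand for HNF4A. No exon of GENCODE 44 overlapped any of them. RefSeq gave 2 starts each for CEBPB and HNF4A, and the window of the upstream start is shown. For CEBPB that window does not reach the gene start of the count table, while the window of its other start, chr20:50190580-50190829, ends directly before it.
CEBPA: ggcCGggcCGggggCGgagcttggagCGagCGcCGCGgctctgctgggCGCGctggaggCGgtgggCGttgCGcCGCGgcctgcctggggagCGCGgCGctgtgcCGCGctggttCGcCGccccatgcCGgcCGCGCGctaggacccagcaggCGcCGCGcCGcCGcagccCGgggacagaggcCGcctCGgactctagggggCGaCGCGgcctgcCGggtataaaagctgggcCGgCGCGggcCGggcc
CEBPB: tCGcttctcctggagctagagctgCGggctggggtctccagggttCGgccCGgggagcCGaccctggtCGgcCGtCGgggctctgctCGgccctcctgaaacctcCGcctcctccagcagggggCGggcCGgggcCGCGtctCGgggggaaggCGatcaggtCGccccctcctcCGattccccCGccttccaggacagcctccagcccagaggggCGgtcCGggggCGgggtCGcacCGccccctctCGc
HNF4A: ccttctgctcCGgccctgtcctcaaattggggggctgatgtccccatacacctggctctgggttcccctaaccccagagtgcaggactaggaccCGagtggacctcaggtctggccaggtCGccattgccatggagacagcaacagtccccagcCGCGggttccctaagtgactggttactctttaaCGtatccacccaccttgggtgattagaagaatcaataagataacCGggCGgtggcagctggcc
The CEBPA window held 41 CG dinucleotides, more than 98.3% of the 35116 promoter windows of the same length, whose median was 11. The CEBPB window shown held 25, more than 78.4% of windows, and the other CEBPB window held 38, more than 96.7%. Both HNF4A windows held 8, more than 43.7% of windows. RefSeq gave 10 windows for 7 of the 9 factors, and FOXA2 and HNF4G had none in the table used here. Searched on both strands, GGGCGG, the box bound by SP1, occurred 2 times for CEBPA, 4 and 5 times in the CEBPB windows and 1 time in each HNF4A window, and it was present in 42.6% of all windows. TATAAA (10.7% of windows) occurred 1 time for CEBPA and 1 time in the CEBPB window not shown. CCAAT (32.0% of windows) occurred 1 time in the HNF4A window shown and 1 time in the CEBPB window not shown. For CEBPB and HNF4A the matches therefore depended on which start was taken. None of the 3 windows shown held TGTTTAC, a forkhead motif (2.98% of windows), CAAAGTCCA, an HNF4 motif (0.325%), or TTGCNNAA, a CEBP motif (9.05%). A match or its absence is a description of these letters only.

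Input totals were 11211608 and 10710226 counts in METTL5-WT against 12672012 and 15307257 in METTL5-KO. RPF totals over the TE table were 3970779 and 4592443 reads in METTL5-WT compared with 8626705 and 9255921 in METTL5-KO. A gene at 0 counts is bounded at 3 counts, or 0.196 to 0.280 counts per 1000000 counts of the library (CPM), and such limits cover counting error only. The targeted gene METTL5 fell from 490 and 542 input counts to 208 and 151, which is -1.86 ± 0.18 on the log2 scale (SE) with an adjusted p of 7.171e-08 by edgeR. Its RPF reads fell from 158 and 226 to 41 and 21 (log2 fold change -3.56 ± 0.30, limma, adjusted p = 1.947e-07). The METTL5-KO input replicates differed from each other more than the METTL5-WT replicates did, with a chi-square per degree of freedom of 15.8 against 3.17.

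Only 3 of the 9 factors were present at more than trace level in the input RNA, and these were the same 3 in both genotypes. HNF4A (ENSG00000101076, hg38 chr20:44355700-44434596) had 0 and 1 counts in METTL5-WT versus 1 and 0 in METTL5-KO. FOXA3 (ENSG00000170608, chr19:45863989-45873797) had 0 counts in all 4 input libraries. NR1H4 (ENSG00000012504, chr12:100473708-100564414), the bile acid receptor, also had 0 in all 4. These 3 genes were therefore not detectable or at single reads in either genotype at this depth.

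FOXA2 had 1 and 2 counts in METTL5-WT against 0 and 3 in METTL5-KO, and the groups overlapped. NR5A2 had 0 and 0 counts in METTL5-WT compared with 0 and 4 in METTL5-KO, so that its reads came from METTL5-KO replicate 2. HNF4G had 0 and 2 counts in METTL5-WT versus 6 and 7 in METTL5-KO, and the groups did not overlap. Summed over replicates and scaled to the library totals, 13 counts against 2 for HNF4G gave a ratio of 5.09 with an exact 95% interval of 1.15 to 46.5, which covers counting error only. With no filter on low counts, edgeR gave HNF4G a log2 fold change of 2.24 with an adjusted p of 0.449, so it was not called. All 6 of these factors fell below the filter on low counts and were not tested. For comparison, 7627 of 19919 protein-coding genes (38.3%) had at most 7 counts in every input library, and 4179 (21%) had 0 in all 4.

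CEBPB was the most abundant. It had 511 and 441 input counts in METTL5-WT against 661 and 808 in METTL5-KO. FOXA1 had 209 and 182 in METTL5-WT compared with 224 and 275 in METTL5-KO. CEBPA had 184 and 170 in METTL5-WT versus 71 and 102 in METTL5-KO, and it was the factor of these 3 whose raw counts were lower in the deeper METTL5-KO libraries. The plot of input counts shows the gap between the 3 measured factors and the other 6.

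**Figure D1:**
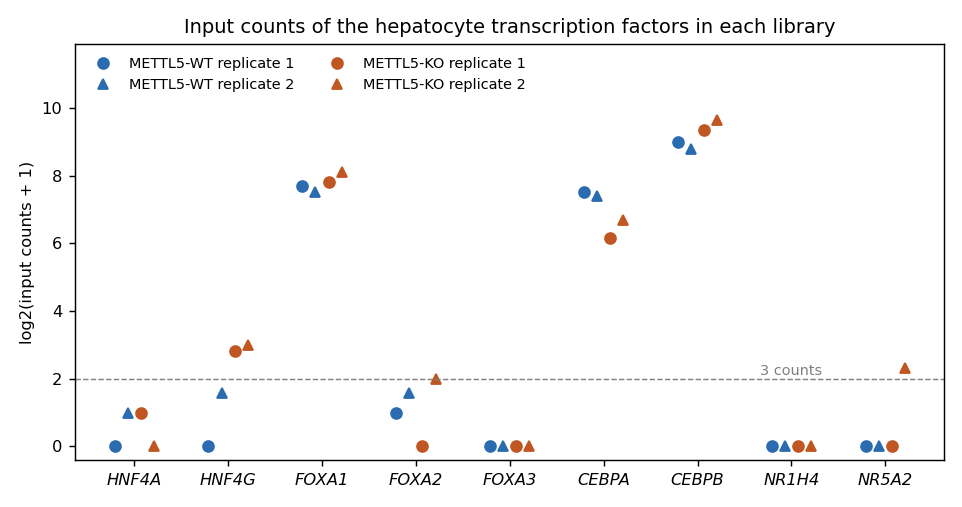
Input counts of the 9 factors on a log2(counts + 1) scale, with 1 point per library and the dashed line at 3 counts. CEBPB, FOXA1 and CEBPA lie between 71 and 808 counts, HNF4G reaches 7, NR5A2 reaches 4, and the other 4 factors lie at or below 3.

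Levels per length allow the genes to be ordered. In METTL5-WT input, CEBPB stood at 23.6 ± 1.69 CPM per kb of exon (SD, n = 2), CEBPA at 6.21 ± 0.147 and FOXA1 at 4.04 ± 0.264. The replicates of these 3 did not overlap. In METTL5-KO the order was CEBPB at 28.5 ± 0.240, FOXA1 at 4.04 ± 0.0462 and CEBPA at 2.36 ± 0.288, again with no overlap. CEBPA and FOXA1 thus changed places between the genotypes. Among protein-coding genes, CEBPB was above 89.2% and 91.3% in METTL5-WT and METTL5-KO, and FOXA1 was above 63.5% and 63.4%. CEBPA was above 69.5% of protein-coding genes in METTL5-WT compared with 57.0% in METTL5-KO. The median protein-coding gene stood at 0.933 and 1.03 CPM per kb. Among the 6 trace factors, HNF4G was the highest in METTL5-KO at 0.0970 ± 0.00239, above FOXA2 at 0.0360 ± 0.0510, while in METTL5-WT their replicates overlapped. Counting on coding length in place of exon length left the same 3 factors above 1 CPM per kb in both genotypes.

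The cells were then examined for what these factors are known to control, since the labels name a liver line. Of 8 defining hepatocyte markers (ALB, TTR, TF, SERPINA1, APOA1, APOB, FGB and AHSG), TTR, SERPINA1, FGB and AHSG were at 0 in all 4 input libraries. Summed over the 8 genes there were 6 and 3 counts in METTL5-WT versus 0 and 3 in METTL5-KO, which is 0 to 0.535 CPM, and none of the 8 was in the TE table. The markers of the labelled cell type were thus absent or at single reads in both genotypes. Among 28 hepatocyte products, 20 had at most 3 counts in every input library. The exceptions included CPS1, the first enzyme of the urea cycle, with 11151 and 11102 counts in METTL5-WT against 9229 and 10819 in METTL5-KO. VTN, which encodes the plasma protein vitronectin, had 164 and 186 counts in METTL5-WT compared with 42 and 43 in METTL5-KO, and the groups did not overlap. Of the 4 products that could be tested, VTN fell by 2.39 on the log2 scale (edgeR, adjusted p = 1.29e-07) and CPS1 fell by 0.51 (adjusted p = 0.001995). The CPS1 call was lost without METTL5-WT replicate 1 (adjusted p = 0.1201) or METTL5-WT replicate 2 (0.1675). None of the 4 rose, where 11.8% of all genes tested rose and 10.6% fell.

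Other markers were read on the same scale. Of 8 bile duct markers, 4 had at most 3 counts in every input library. KRT19 and EPCAM among them were at 0 or 1 count in every library, while KRT7 had 9810 and 8808 counts in METTL5-WT versus 9231 and 12259 in METTL5-KO. SOX9, a bile duct and progenitor factor, rose from 6 and 8 counts to 50 and 63 (log2 fold change 2.63 ± 0.47, edgeR, adjusted p = 2.068e-04). SOX4 fell by 0.45 on the log2 scale (adjusted p = 0.008488), a call lost without METTL5-WT replicate 1 (0.295) or METTL5-WT replicate 2 (0.139). The summed bile duct list ranged from 1180 to 1220 CPM in METTL5-WT and from 1120 to 1190 in METTL5-KO. Of 11 mesenchymal markers, 10 had at least 10 counts in every library, and VIM had 13668 and 12326 in METTL5-WT against 16362 and 17631 in METTL5-KO. The summed mesenchymal list ranged from 1370 to 1430 CPM in METTL5-WT and from 1370 to 1510 in METTL5-KO, and 2 of the 10 tested genes rose and 2 fell, where 11.8% of all genes rose and 10.6% fell. Those calls were TWIST1 (0.79, adjusted p = 0.00373), COL1A1 (0.44, 0.02253), PDGFRB (-0.91, 0.01984) and CDH2 (-0.36, 0.04538), as edgeR log2 fold changes and adjusted p-values. DESeq2 passed TWIST1 (adjusted p = 0.02376) and not the other 3 (0.06027 to 0.1211). Without METTL5-WT replicate 1, edgeR called none of the 4 (adjusted p from 0.05356 to 0.4599), and without METTL5-WT replicate 2 it did not call COL1A1 (0.1067), PDGFRB (0.1038) or CDH2 (0.3769).

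Of 10 oncofetal liver markers, AFP had 0 and 0 counts in METTL5-WT compared with 5 and 9 in METTL5-KO, and IGF2 was at 0 in all 4 libraries. Both AFP and IGF2 fell below the filter on low counts and were not tested. H19, the imprinted fetal RNA, had 7094 and 6682 counts in METTL5-WT versus 3573 and 5029 in METTL5-KO (log2 fold change -1.05 ± 0.12, edgeR, adjusted p = 5.298e-07). IGF2BP2, a fetal RNA-binding protein gene, fell from 109 and 120 counts to 24 and 30 (-2.44 ± 0.29, adjusted p = 1.345e-06). The summed oncofetal list was 1250 and 1260 CPM in METTL5-WT against 857 and 840 in METTL5-KO. Of these sums, H19 alone held 632.7 and 623.9 CPM in METTL5-WT against 282 and 328.5 in METTL5-KO. Of the 5 genes of the list tested by edgeR, 0 rose and 2 fell, where 11.8% of all genes rose and 10.6% fell. The log2 fold changes not called were those of PEG10 (-0.28), IGF2BP1 (-0.22) and IGF2BP3 (0.30). Among 8 blood and vessel markers, the highest count of any gene was 11, and their sums lay between 0.0934 and 1.42 CPM. Of 7 intestinal markers, 6 were at 0 in all 4 libraries. The part of any of these lists in the values of the 9 factors was not tested.

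**Figure D2:**
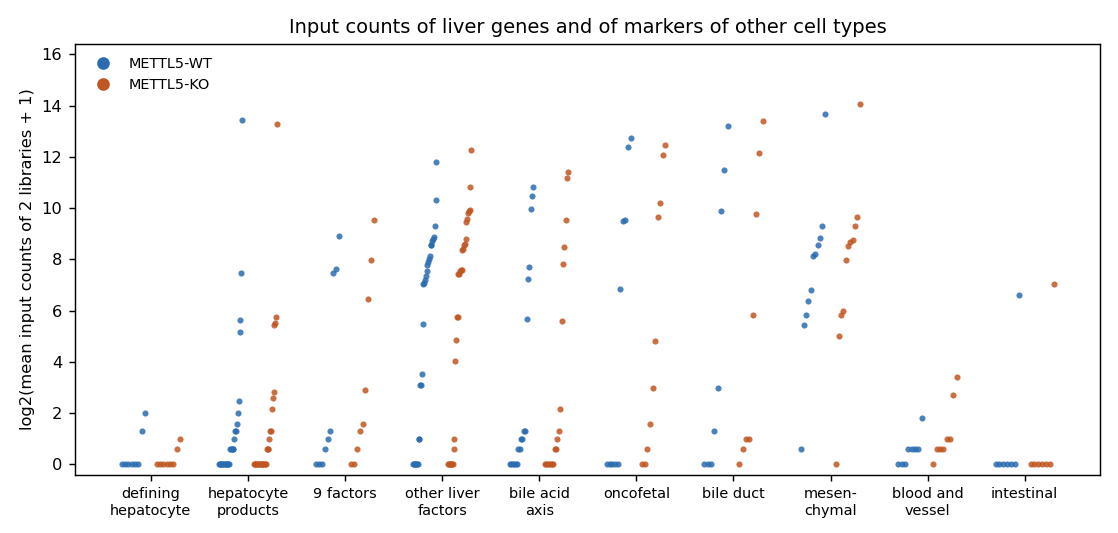
Mean input counts of 2 libraries per genotype on a log2(counts + 1) scale, with 1 point per gene, for the 9 factors, other liver genes and markers of other cell types. The 8 defining hepatocyte markers reach at most 4 counts in any library, while KRT7 of the bile duct list has at least 8808 and VIM of the mesenchymal list at least 12326.

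Between genotypes, CEBPA was the factor whose input RNA fell, and no factor rose. CEBPA (ENSG00000245848, hg38 chr19:33299934-33302534, minus strand) changed by -1.40 ± 0.21 on the log2 scale (SE, edgeR, adjusted p = 4e-05), with both METTL5-KO libraries below both METTL5-WT libraries. DESeq2 gave it an adjusted p of 9.758e-05. This was 1 of the 3 factors tested, read against 22.4% of the 14054 genes tested by edgeR that were called in either direction, 11.8% higher and 10.6% lower in METTL5-KO. DESeq2 called 6.96% of the 31373 genes it fitted. The median log2 fold change over all genes tested was -0.004.

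CEBPA kept its call in all 11 alternatives tried, where its log2 fold change ranged from -1.57 to -1.26 and its adjusted p from 9.049e-09 to 0.00616. CEBPA has the highest coding GC content of the 9 factors (74.9%), and with a trend on GC content removed its log2 fold change was -1.57 (adjusted p = 2.656e-06). Antisense genes overlap the exons of CEBPA, CEBPB and FOXA1, and counting was by strand. The 2 antisense genes at CEBPA had at most 1 count in any library, while those at CEBPB (CEBPB-AS1) and FOXA1 (TTC6) had 6 to 14 and 8 to 14. The 40 tested genes nearest to CEBPA on chromosome 19 had a median log2 fold change of 0.03, with 5 called higher and 2 lower. For the 40 nearest to CEBPB on chromosome 20 the median was -0.11, with 2 higher and 9 lower. For the 40 nearest to FOXA1 on chromosome 14 it was -0.05, with 1 higher and 5 lower. A part of the chromosomal region in these changes was not tested.

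CEBPB (ENSG00000172216, hg38 chr20:50190830-50192668, plus strand) had an input log2 fold change of 0.27 ± 0.13 with an adjusted p of 0.1518 (edgeR) and was not called, although both METTL5-KO libraries lay above both METTL5-WT libraries once scaled to library totals. Without METTL5-KO replicate 1, CEBPB was called, at 0.29 with an adjusted p of 0.03579, which made 2 factors called in place of 1. With the GC trend removed its log2 fold change was 0.09 (adjusted p = 0.5623). FOXA1 (ENSG00000129514, hg38 chr14:37589552-37596059, minus strand) had -0.01 ± 0.17 with an adjusted p of 0.9867, and its values scaled to library totals overlapped between the genotypes. The FOXA1 change ranged from -0.20 to 0.07 over the alternatives, and its sign turned with limma on the TE table, with no filter on low counts, and without METTL5-WT replicate 1 or METTL5-KO replicate 1. CEBPG, a partner of both CEBP proteins, had 640 and 607 counts in METTL5-WT compared with 660 and 750 in METTL5-KO, which is -0.18 ± 0.13 on the log2 scale (edgeR, adjusted p = 0.3477).

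Ribosome footprints were available for the 3 factors of the TE table, which holds genes with at least 1 read in every library. CEBPA had 17 and 30 RPF reads in METTL5-WT versus 18 and 20 in METTL5-KO. The METTL5-KO libraries were the deeper ones, and divided by the size factors of the libraries these reads were 40.4 and 60.2 against 21.7 and 22.3, so the groups did not overlap. Its RPF log2 fold change was -1.13 ± 0.32 (limma on log2(value + 1), adjusted p = 0.01333), and edgeR on the recovered reads gave an adjusted p of 0.01693. CEBPA was the 1 factor of 3 called, where limma called 29.3% of 11240 genes, 16.2% higher and 13.1% lower in METTL5-KO, and edgeR called 28.1%. The call rested on few reads, and it was lost without METTL5-WT replicate 2 (-0.85, adjusted p = 0.1173), METTL5-KO replicate 1 (-1.11, 0.08556) or METTL5-KO replicate 2 (-1.15, 0.07935), and in the 4 RPF libraries alone (0.08695).

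FOXA1 had 55 and 79 RPF reads in METTL5-WT against 122 and 107 in METTL5-KO. After division by size factors its means were 145 ± 19.6 and 133 ± 19.7 (SD, n = 2), with overlapping replicates and a log2 fold change of -0.12 ± 0.22 (limma, adjusted p = 0.7159). CEBPB had 231 and 232 RPF reads in METTL5-WT compared with 483 and 556 in METTL5-KO. Its normalized values of 549 and 465 in METTL5-WT lay below 583 and 620 in METTL5-KO, with a log2 fold change of 0.25 ± 0.14 (limma, adjusted p = 0.1797). With the GC trend removed, where 31.7% of genes were called, CEBPB was called at 0.48 (adjusted p = 0.006781), and 2 of the 3 factors then passed. As RPF reads scaled to the same total and divided by the kb of coding sequence, CEBPB stood at 52.5 ± 5.23 in METTL5-WT versus 56.1 ± 2.79 in METTL5-KO, FOXA1 at 10.97 ± 1.67 and 9.08 ± 1.29, and CEBPA at 5.03 ± 1.48 and 1.98 ± 0.0489. The median gene of the TE table stood at 19.1 and 17.0. The order of the 3 by RPF level was therefore the same in both genotypes, unlike the order by input level.

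**Figure D3:**
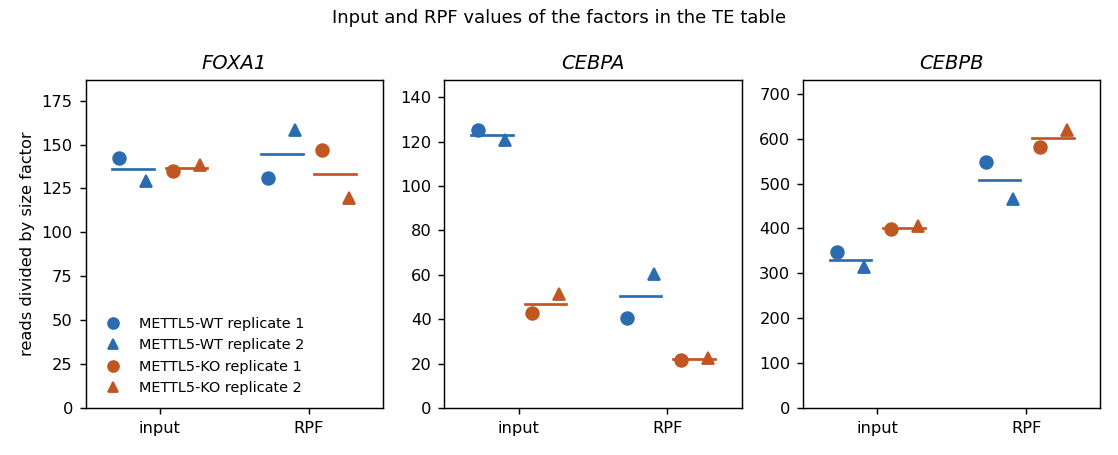
Input and RPF values of FOXA1, CEBPA and CEBPB, as reads divided by the size factor of each library, with 1 point per library and a bar at the mean of 2 replicates. For CEBPA the METTL5-KO points lie below the METTL5-WT points in input (42.8 and 51.2 against 125 and 121) and in RPF (21.7 and 22.3 against 40.4 and 60.2).

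TE, the RPF value relative to the input value, was not called for any of the 3 factors by limma, and no unadjusted p was under 0.05 (FOXA1 0.6812, CEBPA 0.5941, CEBPB 0.8621). On the recovered reads edgeR called none of the 3, and DESeq2 did not call FOXA1 or CEBPB and gave CEBPA no adjusted p. Over all genes limma called 4.79% (2.7% higher and 2.08% lower in METTL5-KO) and edgeR 6.95%, and with the GC trend removed 2.68% were called (1.86% higher and 0.82% lower). CEBPA had log2 TE of -1.63 and -1.01 in METTL5-WT against -0.98 and -1.20 in METTL5-KO, and the groups overlapped. The interaction was 0.25 ± 0.45 on the log2 scale (adjusted p = 0.7951), and a change of that size was not detectable at this number of reads. With the GC trend removed it was 0.67 ± 0.45 (adjusted p = 0.4578). CEBPB had log2 TE of 0.66 and 0.57 in METTL5-WT compared with 0.55 and 0.61 in METTL5-KO and an interaction of -0.03 ± 0.19 (adjusted p = 0.9375). FOXA1 had log2 TE of -0.12 and 0.29 in METTL5-WT versus 0.12 and -0.21 in METTL5-KO and an interaction of -0.13 ± 0.30 (adjusted p = 0.8468). The median log2 TE over all genes was 0.009 in METTL5-WT against 0.004 in METTL5-KO. To compare TE between genes, RPF values were taken per kb of coding sequence and input values per kb of exon. On that scale CEBPA was above 6.8% of 11224 genes in METTL5-WT and 9.8% in METTL5-KO, among the genes with few footprints for their RNA, while CEBPB was above 38.7% and 38.8% and FOXA1 above 48.1% and 45.3%. Without division by length, CEBPB was above 70.1% and 70.5% of genes and CEBPA above 14.6% and 18.1%, so that the place of CEBPB depended on the length correction. The internal start codons of the CEBP messages could not be resolved, because the values are 1 number per gene.

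The genes most like HNF4A across libraries could not be sought, since HNF4A has no row in the TE table. Among the 3 factors of that table, the Euclidean distance over the 8 libraries, in log2(value + 1) centred within each library type, was 0.65 between FOXA1 and CEBPB, 1.75 between FOXA1 and CEBPA and 2.24 between CEBPA and CEBPB. The nearest genes of all to CEBPA, a search chosen after HNF4A was found missing, were VSTM2L (0.38), OBSL1 (0.43) and PLA2R1 (0.44). For FOXA1 they were GGCX (0.12), SYNJ1 (0.12) and POLR1C (0.14), and for CEBPB they were RBM19 (0.11), PSMB6 (0.13) and INPP1 (0.14).

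The wider network of liver transcription factors was read from a list of 30 genes. In input, 20 of the 30 were tested, of which 6 rose and 2 fell, with a median log2 fold change of 0.16 against -0.004 over all genes. Over all genes edgeR called 11.8% higher and 10.6% lower. The median was taken without removal of the GC trend. With that trend removed, edgeR did not call MLXIPL (adjusted p = 0.05845). It then called PPARA higher (0.04436) and GATA6 lower (0.02809), which the main test did not call. DESeq2 called 5 of the 30 higher and 0 lower. Over all genes it called 6.96% of the 31373 it fitted. That set includes low genes left out of the edgeR test, so this share is not a like measure for a list of mostly tested genes. GATA4, the xenobiotic receptors NR1I2 and NR1I3, CREB3L3 and NR0B2, the repressor that NR1H4 induces, were at 0 in all 4 libraries. ONECUT1 had 1 count in every library. HLF, a circadian leucine zipper factor, rose from 10 and 11 counts to 60 and 45 (log2 fold change 1.97 ± 0.45, edgeR, adjusted p = 0.002512). PPARGC1A, a coactivator of HNF4A in gluconeogenesis, rose from 352 and 396 counts to 809 and 979 (0.90 ± 0.13, adjusted p = 2.878e-05). MLXIPL, the glucose-responsive factor ChREBP, had 5 and 10 counts in METTL5-WT compared with 26 and 30 in METTL5-KO (1.53 ± 0.55, adjusted p = 0.04925), and DESeq2 did not call it (adjusted p = 0.2455). TBX3 fell by 0.54 on the log2 scale (edgeR, adjusted p = 0.01357) and ATF5 also fell by 0.54 (adjusted p = 0.0471), and DESeq2 called neither (0.05931 and 0.1876). The MLXIPL call was lost whichever library was left out (adjusted p from 0.09263 to 0.4302), that of TBX3 without METTL5-WT replicate 1 (0.4134), and that of ATF5 without METTL5-WT replicate 1 (0.5884) or METTL5-KO replicate 2 (0.174).

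**Figure D4:**
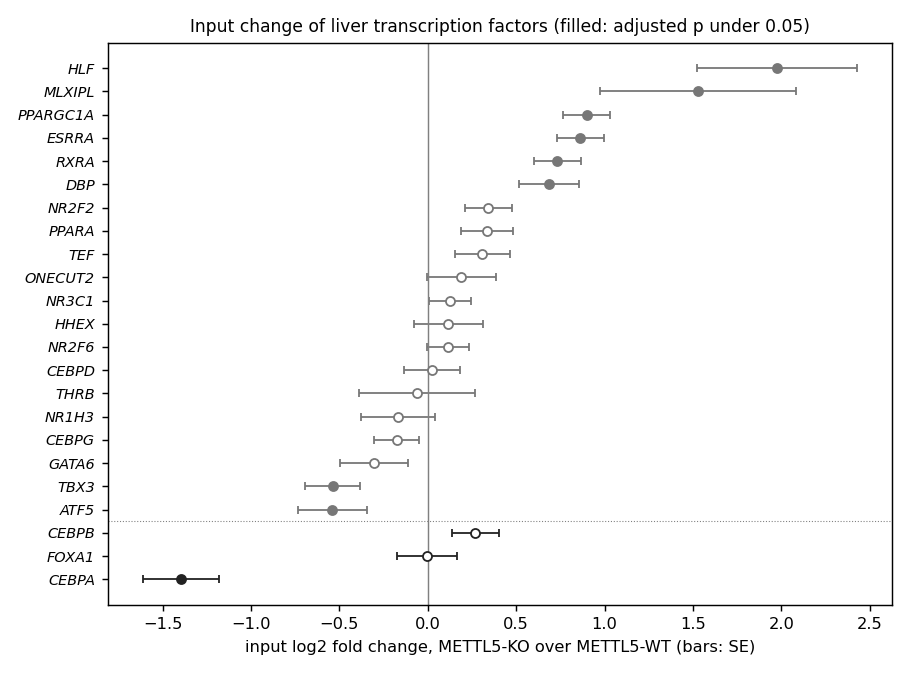
Input log2 fold change of METTL5-KO over METTL5-WT, with bars for the standard error, for the 3 factors tested (below the dotted line) and for 20 other liver transcription factors. Filled points passed an adjusted p under 0.05 by edgeR, and CEBPA, at -1.40, has the lowest value shown while HLF, at 1.97, has the highest.

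RXRA, the partner of NR1H4, was measured where NR1H4 was not. It had 441 and 442 input counts in METTL5-WT versus 782 and 1109 in METTL5-KO, and it rose by 0.73 ± 0.13 on the log2 scale (edgeR, adjusted p = 2.778e-04). In RPF it had 211 and 270 reads in METTL5-WT against 375 and 466 in METTL5-KO, and a log2 fold change of -0.10 ± 0.14 (limma, adjusted p = 0.6093). Its TE fell by 0.84 ± 0.20 on the log2 scale (limma, adjusted p = 0.02343; edgeR on recovered reads, 0.007541). It was the 1 gene of the 21 in the TE table whose TE was called by limma, a share near the 4.79% called over all genes. By edgeR on recovered reads, which called 6.95% of all genes, NR2F6 was also called lower, at an adjusted p of 0.04997 against 0.1174 by limma. The RXRA call by limma was lost with the GC trend removed (-0.53, adjusted p = 0.104) and with no variance trend (adjusted p = 0.1495). It was also lost with any of the lysates left out. The RXRA TE change was then -0.86 without METTL5-WT replicate 1 and -0.82 without METTL5-WT replicate 2. It was -0.86 without METTL5-KO replicate 1 and -0.82 without METTL5-KO replicate 2.

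A list of 18 genes for the bile acid axis was also mostly at or near 0 counts. It held genes of bile acid synthesis and transport, which NR1H4 and NR5A2 are known to control, and others such as SDC1 and SCARB1. Of the 18 genes, 11 had at most 3 counts in every input library. Among them were CYP7A1, the rate-limiting enzyme of bile acid synthesis, at 0 in all 4, and the bile salt export pump ABCB11 with 1 count in 1 library. Of 6 tested, 1 rose and 1 fell, where 11.8% of all genes tested rose and 10.6% fell. ABCC2, a canalicular conjugate pump, rose from 1497 and 1356 counts to 2485 and 2892 (log2 fold change 0.56 ± 0.11, edgeR, adjusted p = 8.789e-04). SDC1, a heparan sulfate proteoglycan, fell from 970 and 1026 to 675 and 797 (-0.80 ± 0.12, adjusted p = 3.794e-05). The ABCC2 call was lost without METTL5-WT replicate 1 (adjusted p = 0.07954) or METTL5-WT replicate 2 (0.1341).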

How the data were processed

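Input RNA and RPF were measured in 2 replicates per genotype, with groups and numbers from the sample titles. The authors trimmed reads, aligned them to hg38 with STAR 2.7.3a and used featureCounts, by strand and over exons, for the raw counts of each gene that they deposited. The TE table, called RPKM by the authors, held deposited signal values that were whole reads divided by a size factor for each library (100% of values whole within 0.05 of a read). The authors also deposited fold changes, p-values and adjusted p-values of TE, which were not used. Of the count table, 3 broken lines were not read.

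The plan had assumed RPKM, so limma on log2(value + 1) was kept as the main test of RPF and TE, which understates changes of low genes, and edgeR and DESeq2 were run on the recovered reads beside it. The test of input was the quasi-likelihood test of edgeR 4.0.16 after filterByExpr and TMM (14054 genes). RPF and TE used limma 3.58.1 (eBayes with trend, 4 groups, 8 libraries), on the 11240 genes whose mean reached 1 in both input and RPF, and TE was taken as the genotype effect on RPF minus that on input. Versions were DESeq2 1.42.0, R 4.3.3 and Python 3.11.15. All tests were two-sided, adjusted by Benjamini-Hochberg over all genes tested, with calls at an adjusted p under 0.05. An exact permutation of 2 against 2 could not go below p = 0.333 and was not used. The fits were tested on simulated data.

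The members and all gene lists were chosen with earlier results of these data known. Named genes were the 9 factors, METTL5, RXRA, NR0B2 and CEBPG, and from each other list up to 3 called rises and 3 called falls with the largest input change, likewise for TE calls, with counts of other marker genes given as the label check. Some items named by that rule are not reported here. Symbols, coding lengths and GC content came from GENCODE 44, in which 99.94% of genes had the place given in the count table. GC and length trends (loess, span 0.3) were removed in alternatives. Promoter windows came from RefSeq.

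Same-numbered replicates were checked for pairing. The correlation of replicate differences between genotypes was 0.039 in input and -0.002 in RPF. The input and RPF of a lysate share their source by the protocol, and their replicate differences correlated at -0.015 in METTL5-WT and 0.053 in METTL5-KO. Libraries that share a source thus also showed little correlation, so this check could not decide whether the numbers pair the samples.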

Additional observations from a re-analysis of the deposited data

How the results depend on the processing

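Of the 9 factors, CEBPA kept its input call in 11 of 11 alternatives. The number of factors called in input was 1, and 1 to 2 with a library left out. The number called in RPF was 1, with 0 to 1 when a lysate was left out, 0 in the 4 RPF libraries alone and 2 with the GC trend removed. No setting called a factor in TE, and DESeq2 gave CEBPA no adjusted p there. FOXA1 turned positive in input with limma on the TE table (0.0093) and with no filter (0.023), in RPF with the GC trend removed (0.041) and in TE likewise (0.23). With a library or lysate left out it ranged from -0.070 to 0.067 in input, from -0.27 to 0.032 in RPF and from -0.33 to 0.079 in TE. The TE value of CEBPA ranged from -0.062 to 0.55 and that of CEBPB from -0.077 to 0.0099 with a lysate left out, and with the GC trend removed they were 0.67 and 0.38. RXRA in RPF was 0.037 with the GC trend removed. None of these reversed values was called, and the cause was not tested.

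With the replicate block on the number, the counts called over all genes were 3554 in input, 3318 in RPF and 588 in TE, and the number of factors called did not change. With the replicate block on the lysate, TE calls were 794, and 459 with the GC trend removed as well, where FOXA1 was at 0.23, CEBPB at 0.38 and CEBPA at 0.67 and none was called. Over all genes, the 3149 input calls became 1947 with limma, 1139 under a 2-fold rule with unadjusted p, and 1220 to 5474 with a library left out. The 3288 RPF calls became 956 under the 2-fold rule and 1983 to 2773 with a lysate left out. The 538 TE calls became 1 with no variance trend, 301 with the GC trend removed, 837 with DESeq2, 337 under the 2-fold rule and 4 to 265 with a lysate left out, of which 4 was without METTL5-KO replicate 2. Leaving out a library leaves a genotype with 1 sample, which is assumed to vary like the others. Depth limits CEBPA in RPF, at 17 to 30 reads.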
